A study of Mus musculus with 24 samples.

Results

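Integrins are the cell-surface receptors through which cells hold on to the matrix around them, and laminins and nidogens are the matrix proteins that build the basement membrane, the thin sheet under every epithelium. The genes described here are those whose symbols mark them as an integrin alpha or beta chain, a laminin alpha, beta or gamma chain, or a nidogen, in any of 6 tables of gene expression in mouse mammospheres. The symbol rule found 33 genes of the 15323 listed: 20 integrin chains (12 alpha and 8 beta), 11 laminin chains and 2 nidogens. Of the 33, 27 had an entry in all 6 tables. Itga11 in the ErbB2 table, Itgb7 in the table of Myc-ER in PKH-negative cells, Lamc3 in the Nutlin-3 table and Nid1 in the Trp53 table were not analysed here, nor were Itgb6 and Lamb3 in the ErbB2 and Nutlin-3 tables. Itgav and the leukocyte chains Itgal, Itgam and Itgax carry letters in place of numbers, fall outside the symbol rule and are given as partners only.

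An integrin is a pair of an alpha and a beta chain. In the mammary gland, basal cells rest on the basement membrane through laminin receptors: Itga3 or Itga6 paired with Itgb1, and Itga6 paired with Itgb4, the receptor of hemidesmosomes, which ties the keratin skeleton to a laminin that holds the Lama3 and Lamb3 chains. A laminin is a trimer of 1 alpha, 1 beta and 1 gamma chain, and the alpha chain largely sets which receptors bind it. Nidogens bind the gamma chain Lamc1 and link the laminin network to collagen IV. Integrins with the beta chain Itgb2 are found on leukocytes.

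The cells were mammospheres, spheres that mammary cells form when kept from attaching to a dish, from FVB/Hsd mice, in 24 libraries of polyadenylated RNA in 8 groups. Spheres of wild-type mice of 7 weeks, at passage 3, carried the lentiviral vector pWPI, either with Myc-ER (3 libraries) or empty (3 libraries). Myc-ER joins Myc to the ligand-binding domain of the oestrogen receptor. No ligand of the fusion is named in the labels. Spheres from breast tumours of MMTV-ErbB2 mice of 12 to 15 weeks, not infected and at passages 6 to 7, were given Nutlin-3 (2.5 µM for 72 h, 3 libraries), which keeps Mdm2 from binding p53, or no treatment (5 libraries, of which 3 entered the Nutlin-3 table). The transgene is a mutated ErbB2, per the file headers, driven by the mouse mammary tumour virus promoter, which is active mainly in mammary epithelium. Spheres of Trp53-knockout mice of 7 weeks (2 libraries) were not infected and were at passages 6 to 7. Uninfected wild-type spheres of 7-week mice at passage 1 were sorted by PKH, a membrane dye that fades as cells divide, into a PKH-high fraction of 2 libraries and a PKH-negative one of 3. Myc-ER was also put into PKH-negative cells, which gave 3 libraries at passage 3. Apart from the cells sorted at passage 1, spheres were taken 72 h after plating.

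All gene-level means, log2 fold changes and adjusted p-values come from the authors' deposited table of the comparison in question. A mean is the authors' average normalised read count over the libraries of a group. A ± gives the standard error of the log2 fold change, worked back from the authors' p-value, and is left out for Nutlin-3, where the fold change is a mean over pairs. Higher, lower and called are used of a gene where the authors' adjusted p, from DESeq2 and over all genes of the table, was below 0.05. The tables hold group means, so the value of each library and the overlap of groups were not analysed here.

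The summed means were between 36651100 and 48054400 normalised counts per group and table. Trp53 averaged 2998 normalised counts in knockout spheres and 4207 in empty-vector spheres (adjusted p = 0.00024), and its target Cdkn1a averaged 2370.2 and 22565 in those groups. Myc averaged 16782 with Myc-ER and 2975 with the empty vector, and 28517 in PKH-negative cells with Myc-ER and 5996 in those without. Erbb2 averaged 736 in tumour spheres and 1498 in empty-vector spheres, which goes against the label, and whether transgene reads are counted under this symbol was not tested. The spheres expressed more fibroblast than epithelial marker RNA: in the empty-vector group of the Myc-ER table the summed means were 490033 for 7 fibroblast markers, 6434 for 12 luminal, 2268 for 7 basal, 7667 for 12 endothelial and 4725 for 13 myeloid markers. In bulk RNA of this kind fewer cells of a type and less RNA per cell cannot be told apart.

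Set side by side per kilobase of exon, the most abundant members in empty-vector spheres were the nidogen Nid1 (20263 normalised counts per kilobase), the fibronectin receptor chain Itga5 (12072), the shared beta chain Itgb1 (11449), the laminin chains Lamc1 (4793) and Lamb1 (4049), the vitronectin receptor chain Itgb5 (3973) and the laminin chain Lama2 (2127). The hemidesmosome chain Itgb4 stood at 42.0 per kilobase, its partner Itga6 at 666 and the leukocyte chain Itgb2 at 210 on the same scale. Of the 10 highest members of a group, 9 to 10 were also among its 10 highest when the longest transcript replaced the union of exons as the length.

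Of the 33 genes, 31 were called in at least 1 comparison and 13 were called in both directions. The muscle laminin receptor chain Itga7 and the collagen receptor chain Itga1 were called in none. The genes called in 4 or more comparisons were Itga5, Itga9, Itga11, Itgb3 and Lamb2, and each of these calls was lower. How many of all genes were called at least once, in both directions or in 4 or more comparisons was not counted. These tallies therefore do not set the members apart from other genes. Against PKH-negative cells, 16 of 33 were called in PKH-high cells, 8 higher and 8 lower, where 30.7% of all genes in the authors' deposited table were called. In Trp53-knockout spheres 21 of 32 were called, 6 higher and 15 lower, beside 45.9% of all genes, and in ErbB2 tumour spheres 9 of 30, 2 higher and 7 lower, beside 27.1%. Nutlin-3 gave 7 of 30, 2 higher and 5 lower, beside 14.7%. Myc-ER gave 13 of 33 in unsorted spheres, 2 higher and 11 lower, beside 50.8%, so that 39.4% of these genes were called, a share below that of all genes. With a log2 fold change of at least 1 as a further limit the order turned round, at 21.2% of these genes and 16.1% of all genes. In PKH-negative cells Myc-ER gave 16 of 32, 3 higher and 13 lower, beside 37.5%.

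Lower calls outnumbered higher ones among these genes in every comparison but that of the PKH-sorted cells. Among all genes, 26.7% were called higher and 24.1% lower with Myc-ER, 13.5% and 13.6% in ErbB2 spheres, 7.71% and 7.03% with Nutlin-3, 22.3% and 23.6% in the knockout, 15.6% and 15.1% in PKH-high cells, and 18.9% and 18.5% with Myc-ER in PKH-negative cells. The median log2 fold change of the listed members was -0.58 (Myc-ER), -0.59 (ErbB2), -0.03 (Nutlin-3), -0.74 (knockout), -0.00 (PKH-high) and -0.64 (Myc-ER in the PKH-negative fraction). The median over all genes lay between -0.02 and 0.03. The Myc-ER, ErbB2 and knockout comparisons share the empty-vector libraries, both comparisons of sorted cells share the PKH-negative libraries, and the ErbB2 and Nutlin-3 comparisons share untreated tumour libraries, so these are not independent.

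**Figure D1:**
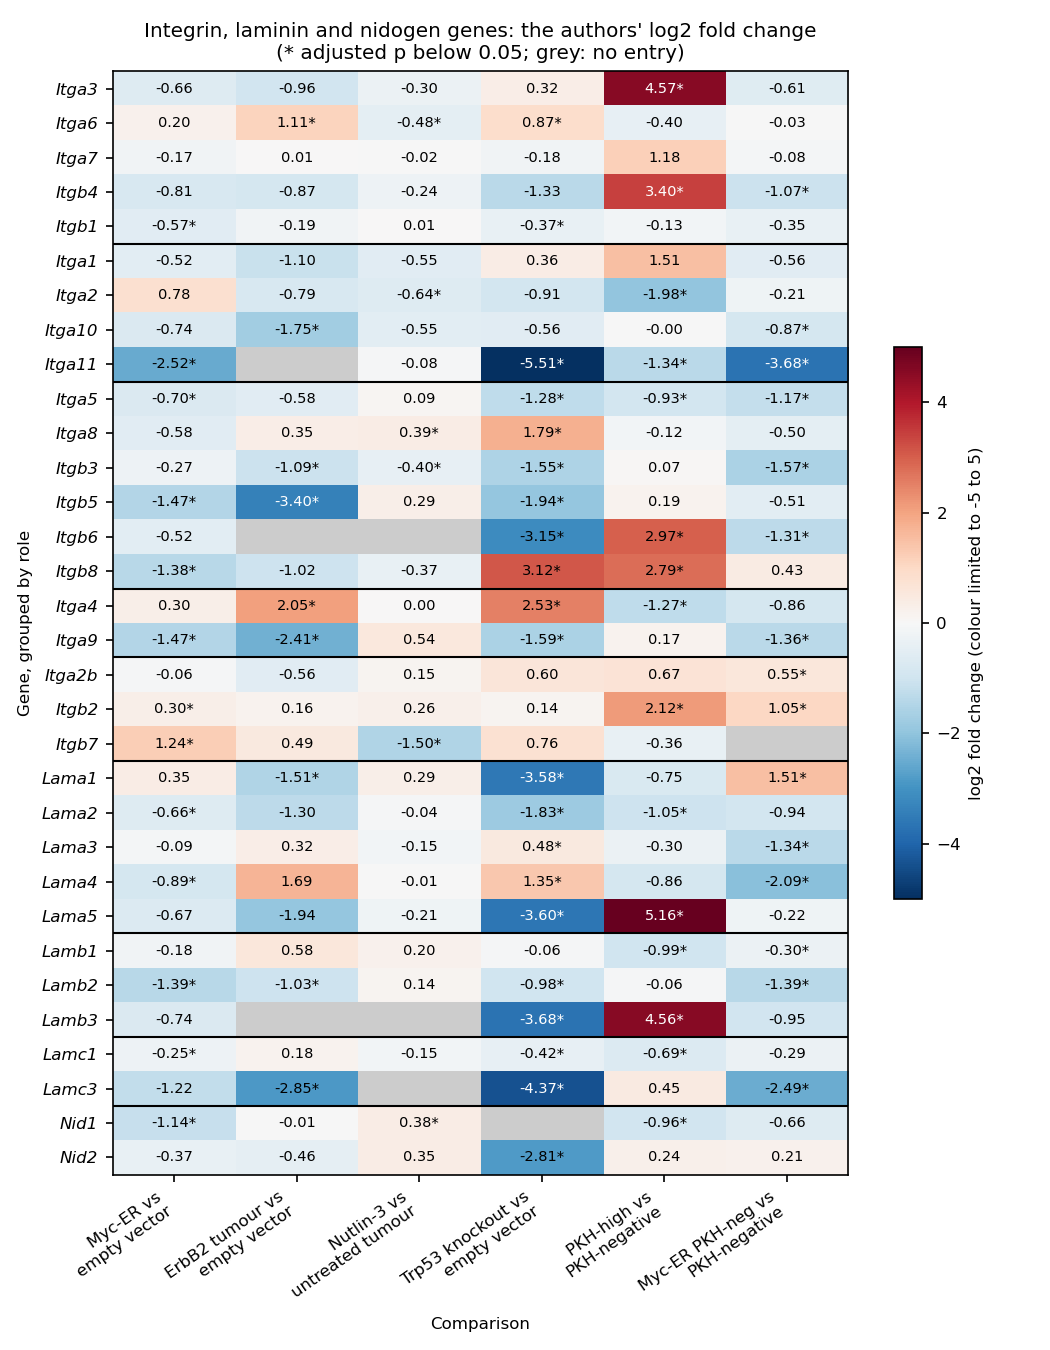
The authors' log2 fold change of 32 integrin, laminin and nidogen genes (rows, grouped by role) in each of the 6 comparisons (columns); red is higher and blue lower in the group named first, an asterisk marks an adjusted p below 0.05 and grey marks no entry. Lama5 (5.16), Itga3 (4.57) and Lamb3 (4.56) are the darkest red, all in PKH-high cells, and Itga11 in the Trp53 knockout (-5.51) is the darkest blue.

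The genes that separated PKH-high from PKH-negative cells most are shown first by the sequence just before their start sites. These stretches show the promoters of the 3 members with the largest increases in PKH-high cells, in order of fold. Each is written 5′ to 3′ on the gene's strand, from RefSeq on GRCm38.p6. A stretch stops where it meets an annotated exon of its gene. The Lamb3 stretch lies inside the GENCODE gene body (chr1:193207699-193343878), past its annotated start, so it precedes an internal start. Capitals mark matches to the GC box GGGCGG on either strand.
Lama5, chr2:180225860-180226109, minus strand: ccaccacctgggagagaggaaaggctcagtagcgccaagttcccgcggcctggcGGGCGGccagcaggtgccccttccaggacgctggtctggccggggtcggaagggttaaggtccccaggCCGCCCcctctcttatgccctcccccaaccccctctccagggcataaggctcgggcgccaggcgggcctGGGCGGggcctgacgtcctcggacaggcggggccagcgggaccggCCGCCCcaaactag
Itga3, chr11:95076802-95076964, minus strand: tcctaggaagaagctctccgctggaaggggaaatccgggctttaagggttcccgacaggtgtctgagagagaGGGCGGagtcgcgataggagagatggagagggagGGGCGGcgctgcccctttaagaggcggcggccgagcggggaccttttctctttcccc
Lamb3, chr1:193301744-193301992, plus strand: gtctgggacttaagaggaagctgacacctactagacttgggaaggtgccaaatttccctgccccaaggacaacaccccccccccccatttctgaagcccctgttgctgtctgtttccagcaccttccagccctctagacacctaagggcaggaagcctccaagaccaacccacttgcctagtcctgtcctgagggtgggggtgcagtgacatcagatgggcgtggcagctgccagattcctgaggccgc
Set beside them are the promoters of 3 abundant members that were lower in PKH-high cells.
Nid1, chr13:13437352-13437550, plus strand: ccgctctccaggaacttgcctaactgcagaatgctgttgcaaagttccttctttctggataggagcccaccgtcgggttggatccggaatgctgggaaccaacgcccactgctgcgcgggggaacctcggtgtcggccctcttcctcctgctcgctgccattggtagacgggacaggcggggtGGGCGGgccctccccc
Lamb1, chr12:31265043-31265233, plus strand: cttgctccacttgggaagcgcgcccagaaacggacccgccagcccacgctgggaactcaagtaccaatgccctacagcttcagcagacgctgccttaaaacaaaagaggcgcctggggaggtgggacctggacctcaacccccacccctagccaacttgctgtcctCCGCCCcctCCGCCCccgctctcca
Itga5, chr15:103366792-103367041, minus strand: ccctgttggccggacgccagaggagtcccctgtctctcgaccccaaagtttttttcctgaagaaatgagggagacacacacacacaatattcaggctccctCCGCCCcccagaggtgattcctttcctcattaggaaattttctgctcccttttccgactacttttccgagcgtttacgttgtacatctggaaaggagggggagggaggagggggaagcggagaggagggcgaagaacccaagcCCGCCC
Within the 250 bases before the start, a GC box was found for 8 of the 21 members that have an entry. They were Itga3, Itgb1, Itga5, Itgb5, Itga4, Lama5, Lamb1 and Nid1, and the share over 27025 promoters was 32.9%. The AP-1 site TGANTCA, the E-box CACGTG and the TATA box TATAAA, searched on both strands, were in 0 of the 21, and in 6.87%, 6.05% and 13.0% of all promoters. A match of letters does not show a site. The GC content of the 250 bases before the start was 72.4% for Lama5, 67.6% for Itga3, 58.8% for Lamb3, 64.4% for Nid1, 62% for Lamb1 and 55.6% for Itga5, and the median of all promoter windows was 52%.

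Gene positions below are GENCODE M21 gene bodies on GRCm38. Of the laminin-binding integrin chains, Itga3 and Itgb4 were higher in PKH-high than in PKH-negative cells, and Itga6, Itgb1 and Itga7 were not called. Itga3, the alpha chain of an epithelial laminin receptor, averaged 5749 normalised counts in PKH-high cells and 219 in PKH-negative cells (log2 fold change 4.57 ± 0.39, adjusted p = 3.29e-30). Itgb4 (chr11:115974709-116008412), the hemidesmosome beta chain, averaged 1349.7 in PKH-high cells and 124 in PKH-negative cells (3.40 ± 0.25, adjusted p = 3.08e-38). Their partner chains did not pass: Itga6 averaged 4327 and 5784 (-0.40 ± 0.40, adjusted p = 0.48), and Itgb1 39263 and 43002 (-0.13 ± 0.16, adjusted p = 0.577) in PKH-high and PKH-negative cells. The ratio of the level of Itga6 to that of its partner Itgb4, per exonic kilobase, was 2.49 in PKH-high cells and 36.3 in PKH-negative cells, or 4.62 and 67.2 with the longest transcript as length. The ratio of Itga3 to Itga6 on the first scale was 2.1 in PKH-high and 0.0598 in PKH-negative cells, or 1.18 and 0.0335 with the longest transcript. Itga7 averaged 1070.0 and 442 in PKH-high and PKH-negative cells (1.18 ± 0.58, adjusted p = 0.106). These ratios were not tested.

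Itga6 was called in 3 comparisons. It was higher in ErbB2 tumour spheres, with 12074 normalised counts against 5533 in empty-vector spheres (1.11 ± 0.34, adjusted p = 0.00717), and in knockout spheres, with 11241 against 6129 (0.87 ± 0.27, adjusted p = 0.00481). It was lower with Nutlin-3, at 7510.2 against 10957 in untreated tumour spheres (-0.48, adjusted p = 0.000157). Itgb4 was lower in PKH-negative cells with Myc-ER, at 59.4 against 135 without it (-1.07 ± 0.35, adjusted p = 0.00927), and missed the threshold in the knockout, at 114 against 303 (-1.33 ± 0.61, adjusted p = 0.0634). In ErbB2 spheres Itgb4 was not called, at 141 against 273 (-0.87 ± 0.73, adjusted p = 0.41). The ratio of Itga6 to Itgb4 levels per exonic kilobase was 66.5 in ErbB2 spheres and 76.8 in knockout spheres, against 15.7 in the empty-vector spheres of either table. With the longest transcript it was 123 and 142 against 29.2. Over the 3 untreated tumour libraries of the Nutlin-3 table it was 45.5, or 84.4 with the longest transcript, so the tumour ratio depends on which libraries are averaged. Itgb1, which serves many receptors, was lower with Myc-ER in unsorted spheres, at 31502 against 46724 in empty-vector spheres (-0.57 ± 0.06, adjusted p = 2.34e-18), and in the knockout, at 36779.9 against 47649.9 (-0.37 ± 0.14, adjusted p = 0.0198). Itga3 passed in no comparison other than that of the PKH-sorted cells.

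Among the laminin alpha chains, the ligands of these receptors, Lama5 was higher and Lama2 lower in PKH-high cells. Lama5, an alpha chain of epithelial and vascular basement membranes, averaged 8877 normalised counts in PKH-high cells and 209.9 in PKH-negative cells (5.16 ± 0.46, adjusted p = 2.15e-27). Lama2 (chr10:26980036-27619758), the alpha chain of the laminin of muscle and nerve basement membranes, averaged 13866 in PKH-high cells and 28861 in PKH-negative cells (-1.05 ± 0.21, adjusted p = 5.75e-06). Lama4 (chr10:38965515-39110188), an alpha chain of mesenchymal and vascular laminins, averaged 4820.1 and 8939 (-0.86 ± 0.39, adjusted p = 0.0767), and Lama3, the epithelial chain that binds in hemidesmosomes, 801 and 992 (-0.30 ± 0.27, adjusted p = 0.425) in PKH-high and PKH-negative cells. Lama5 thus made up 37.0% of the laminin alpha level per exonic kilobase in PKH-high cells and 0.703% in PKH-negative cells. With the longest transcript as length its share in PKH-high cells was 25.2%, and that of Lama2 was 46.6% in place of 40.3%.

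In knockout spheres Lama4 was higher and Lama2 lower than in empty-vector spheres. Lama4 averaged 14272 normalised counts in knockout spheres and 5508 in empty-vector spheres (1.35 ± 0.33, adjusted p = 0.000255), and Lama2 9587 and 35334 (-1.83 ± 0.41, adjusted p = 5.56e-05). In ErbB2 spheres neither passed: Lama4 averaged 17924 there and 4972 in empty-vector spheres (1.69 ± 0.73, adjusted p = 0.0705), and Lama2 12186 and 31896 (-1.30 ± 0.63, adjusted p = 0.11). In the Nutlin-3 table, which holds 3 of the 5 untreated tumour libraries and was normalised separately, the untreated tumour mean was 10419.7 for Lama4 and 5805 for Lama2, while the median gene of that group stood -0.07 on the log2 scale from its mean in the ErbB2 table. The ErbB2 levels of both chains thus depend on which libraries are averaged. Lama4 held 63.4% of the alpha level per exonic kilobase in knockout spheres and 63.8% in ErbB2 spheres, against 16.1% in the empty-vector spheres of either table, where Lama2 held 76.2%. Both comparisons use the same empty-vector libraries. Nutlin-3 left both chains uncalled, with Lama4 at 59.4% in treated and 64.5% in untreated tumour spheres. Lama5 was lower in the knockout, at 110.0 against 1700.0 in empty-vector spheres (-3.60 ± 0.73, adjusted p = 5.35e-06), and Lama1, the alpha chain of early embryonic basement membranes, at 5.28 against 79.2 (-3.58 ± 0.70, adjusted p = 2.55e-06). Lama1 was also lower in ErbB2 spheres, at 23.8 against 71.5 (-1.51 ± 0.57, adjusted p = 0.0329), and Lama3 was higher in the knockout, at 927 against 663 (0.48 ± 0.15, adjusted p = 0.0041).

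**Figure D2:**
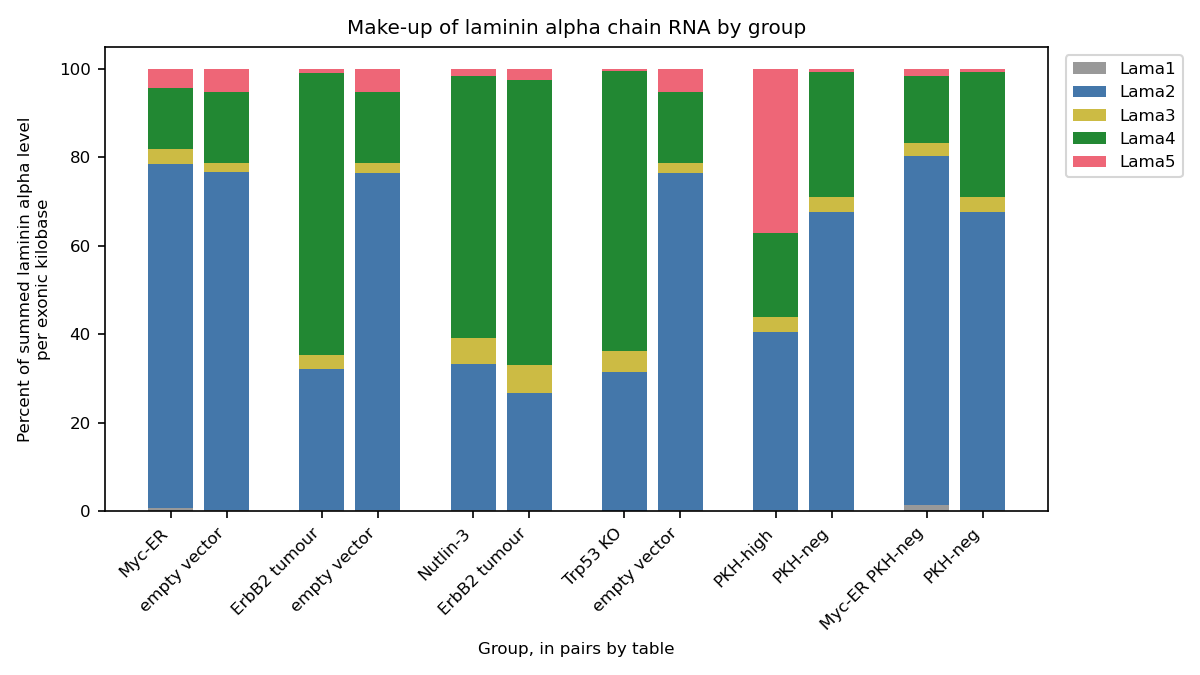
Percent of the summed laminin alpha chain level per exonic kilobase (bar height) held by each alpha chain (colours) in both groups of each table, from the authors' group means. Lama2 (blue) fills 76.2% of the empty-vector bars beside the knockout and ErbB2 bars, where Lama4 (green) fills 63.4% and 63.8%, and Lama5 (pink) fills 37.0% of the PKH-high bar.

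Among the beta and gamma chains, the epithelial chain Lamb3 was higher in PKH-high cells while the widespread pair Lamb1 and Lamc1 was lower. Lamb3 averaged 1075 normalised counts in PKH-high cells and 40.3 in PKH-negative cells (4.56 ± 0.41, adjusted p = 2.11e-26). Lamb1 averaged 20284 and 40341 (-0.99 ± 0.12, adjusted p = 4.19e-14), and Lamc1 25462 and 41278 (-0.69 ± 0.24, adjusted p = 0.0148) in PKH-high and PKH-negative cells. Even so, Lamb3 stood at 0.0795 of the Lamb1 level per exonic kilobase in PKH-high cells and at 0.0015 in PKH-negative cells. Lamb3 overlaps Hsd11b1 and G0s2 on the other strand, and 14 of the 33 members overlap some gene there. These are overlaps of whole gene bodies, and overlap of exons was not examined. The TruSeq kit used does not mark strand, so reads from any exons that do overlap cannot be told apart. In the knockout Lamb3 was lower, at 13.6 against 311 in empty-vector spheres (-3.68 ± 0.99, adjusted p = 0.000783). Lamc1, the gamma chain that nidogens bind, was also lower in the knockout (30228 against 40465, -0.42 ± 0.16, adjusted p = 0.0263) and with Myc-ER in unsorted spheres (33334 against 39652, -0.25 ± 0.08, adjusted p = 0.00446), and Lamb1 in PKH-negative cells with Myc-ER (35578 against 43879, -0.30 ± 0.12, adjusted p = 0.0296). Lama3, the epithelial alpha chain, went the other way in the knockout, as given above.

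Lamb2, the beta chain of synaptic, kidney and vascular laminins, was lower in 4 comparisons. It averaged 3573 with Myc-ER and 9394 with the empty vector (-1.39 ± 0.13, adjusted p = 3.79e-26), and 3281 in PKH-negative cells with Myc-ER and 9018 in those without (-1.39 ± 0.28, adjusted p = 6.63e-06). It averaged 4219.9 in ErbB2 spheres and 8662 in empty-vector spheres (-1.03 ± 0.18, adjusted p = 1.24e-07), and 4812 in knockout and 9595 in empty-vector spheres (-0.98 ± 0.30, adjusted p = 0.00351). Endothelial markers were lower in 7 of 12 cases with Myc-ER (summed means 3282 with Myc-ER and 7667 with the empty vector) and in 7 of 11 with Myc-ER in PKH-negative cells (1274 with Myc-ER and 2165.6 without). They were lower in 5 of 5 in ErbB2 spheres (350.3 in ErbB2 and 1567 in empty-vector spheres) and in 11 of 12 in the knockout, and their part in the result was not tested. In PKH-high and PKH-negative cells Lamb2 averaged 7929.6 and 8291 (adjusted p = 0.849). Lamc3, a gamma chain with low counts throughout, was lower in the knockout (3.91 against 121, -4.37 ± 0.81, adjusted p = 5.95e-07), in ErbB2 spheres (8.05 against 109, -2.85 ± 1.12, adjusted p = 0.0415) and in PKH-negative cells with Myc-ER (25.7 against 192, -2.49 ± 0.48, adjusted p = 2.12e-06).

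Nid1, the most abundant member per exonic kilobase in empty-vector spheres of the Myc-ER table, was lower in PKH-high cells, with 44226 normalised counts against 85989.6 in PKH-negative cells (-0.96 ± 0.13, adjusted p = 1.84e-11). It was lower with Myc-ER in unsorted spheres, at 62204 against 140683 in empty-vector spheres (-1.14 ± 0.26, adjusted p = 5.72e-05), and higher with Nutlin-3, at 140385 against 108090.0 in untreated tumour spheres (0.38, adjusted p = 0.000225). In ErbB2 and empty-vector spheres it averaged 128398 and 128933 (-0.01 ± 0.32, adjusted p = 0.992). Nid2, the second nidogen, was lower in the knockout, at 277 against 2836 in empty-vector spheres (-2.81 ± 0.94, adjusted p = 0.00834), and passed nowhere else. Nid2 overlaps Rtraf on the other strand.

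**Figure D3:**
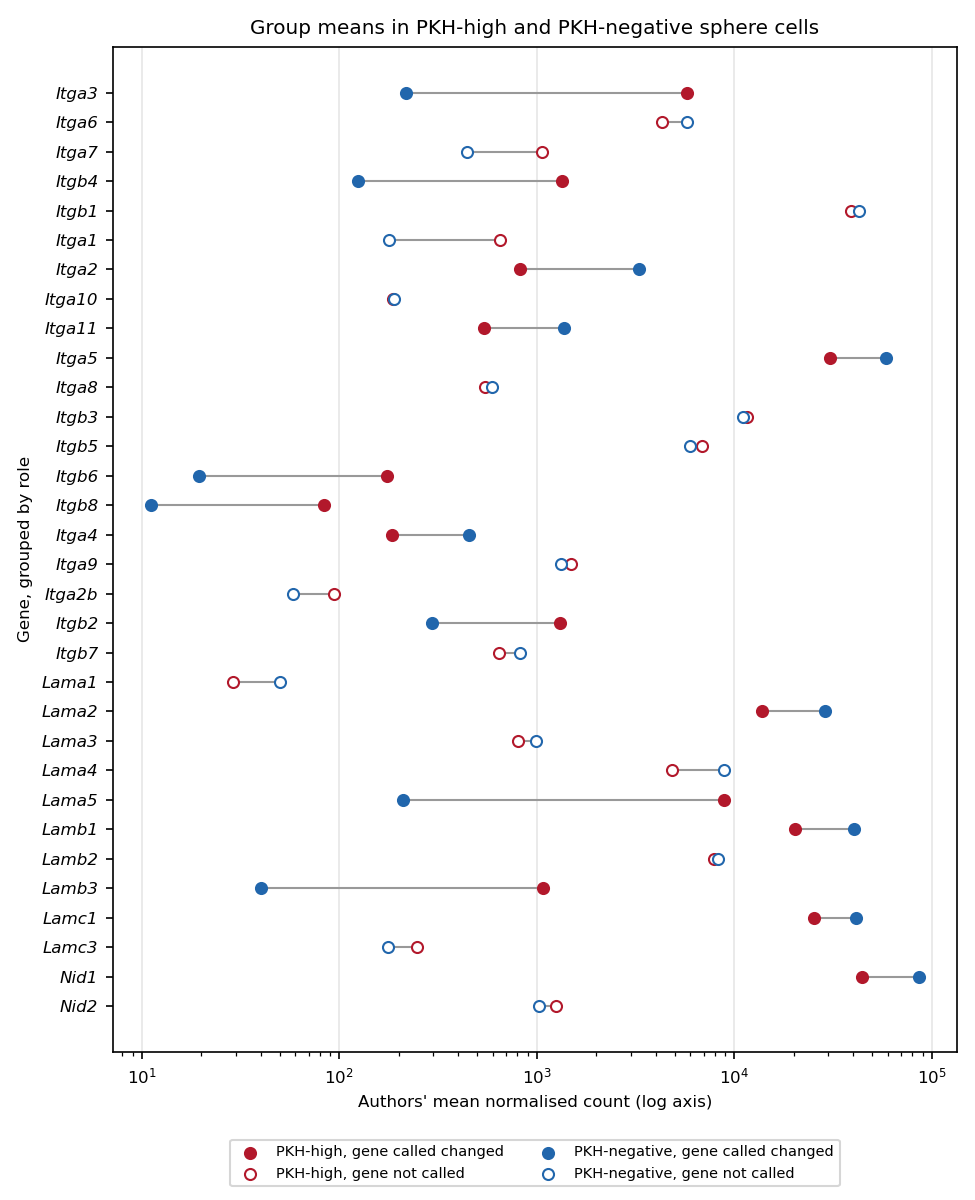
The authors' mean normalised count (log axis) of 32 members in PKH-high (red) and PKH-negative cells (blue), joined by a line; filled points mark genes with an adjusted p below 0.05. Lama5, Itga3 and Lamb3 span the widest gaps with PKH-high on the right, while Nid1, Itga5, Lamb1 and Lamc1, lie with PKH-high on the left.

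Among the collagen-binding chains, Itga11 (chr9:62677826-62783982), which binds fibrillar collagens and is found mainly on fibroblasts, was lower in each of the 4 comparisons in which it was called. It averaged 39.7 normalised counts in knockout spheres and 2336 in empty-vector spheres (-5.51 ± 0.62, adjusted p = 3.45e-17). With Myc-ER it averaged 295, against 2274 in empty-vector spheres (-2.52 ± 0.54, adjusted p = 1.52e-05), and in PKH-negative cells 112 with Myc-ER and 1503 without (-3.68 ± 0.18, adjusted p = 9.24e-91). In PKH-high cells it averaged 542, against 1382 in PKH-negative cells (-1.34 ± 0.20, adjusted p = 7.02e-10). The whole fibroblast list did not follow it in the knockout, where 0 of 8 markers were called and the summed means were 469078 in knockout and 514170 in empty-vector spheres. With Myc-ER 4 of 7 fibroblast markers were lower (226116 against 490033), and their part in the result was not tested.

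Itga2, a receptor chain for collagen I, was lower in PKH-high cells, at 819 against 3316 in PKH-negative cells (-1.98 ± 0.28, adjusted p = 2.04e-11), and with Nutlin-3, at 862 against 1362 in untreated tumour spheres (-0.64, adjusted p = 1.21e-05). With Myc-ER it averaged 4400.2, against 2477 in empty-vector spheres, just outside the threshold (0.78 ± 0.35, adjusted p = 0.0534). Itga10, best known from cartilage, was lower in ErbB2 spheres, at 97.5 against 338 (-1.75 ± 0.40, adjusted p = 0.000155), and in PKH-negative cells with Myc-ER, at 107 against 205 (-0.87 ± 0.31, adjusted p = 0.0159). Itga1 shares its strand and place with Pelo, and was called nowhere.

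The fibronectin receptor chain Itga5 was lower in 4 comparisons. It averaged 30561 normalised counts in PKH-high cells and 58459 in PKH-negative cells (-0.93 ± 0.19, adjusted p = 1.01e-05), and 24739.6 in knockout and 60915 in empty-vector spheres (-1.28 ± 0.31, adjusted p = 0.000172). With Myc-ER it averaged 36105 in unsorted spheres, against 59552 in empty-vector spheres (-0.70 ± 0.24, adjusted p = 0.00943), and 26619 in PKH-negative cells, against 63588 without (-1.17 ± 0.33, adjusted p = 0.0017). Its ligand fibronectin, Fn1, was lower in PKH-high cells (50193 against 161516, -1.67 ± 0.23) and with Myc-ER in unsorted spheres (81810.0 against 225592, -1.45 ± 0.13) and was not called in the knockout. For Fn1 in PKH-negative cells with Myc-ER no value is given here. Fn1, and Vcam1 below, were named as ligands of these receptors after their values were seen.

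The beta chains that pair with Itgav did not move as 1 group. Itgb5, a vitronectin receptor chain, was lower in ErbB2 spheres, at 774 against 12998 in empty-vector spheres (-3.40 ± 0.98, adjusted p = 0.00341), in the knockout, at 3441 against 14398 (-1.94 ± 0.62, adjusted p = 0.00524), and with Myc-ER in unsorted spheres, at 5038 against 14114 (-1.47 ± 0.14, adjusted p = 1.04e-22). Itgb3, which binds vitronectin and osteopontin, was lower in ErbB2 spheres (3937 against 8463, -1.09 ± 0.32), in the knockout (2957 against 9375, -1.55 ± 0.66), with Nutlin-3 (2856 against 3742, -0.40) and in PKH-negative cells with Myc-ER, where it averaged 3976 against 12083 without (-1.57 ± 0.18, adjusted p = 6.7e-17). The partner Itgav was lower in ErbB2 spheres (8806 against 17636), in the knockout (9648 against 19536) and with Myc-ER, both in unsorted spheres (10383 against 19167) and in PKH-negative cells (9204 against 16450.5).

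Itgb8 and Itgb6, which activate latent TGF-beta together with Itgav, were both higher in PKH-high cells and were called in opposite directions in the knockout. Itgb8 (chr12:119158022-119238802) averaged 658 normalised counts in knockout spheres and 62.8 in empty-vector spheres (3.12 ± 0.71, adjusted p = 6.9e-05), and 84.2 in PKH-high and 11.2 in PKH-negative cells (2.79 ± 0.44, adjusted p = 6.41e-09), while with Myc-ER it averaged 21.8, against 61.8 in empty-vector spheres (-1.38 ± 0.43, adjusted p = 0.00324). Itgb6, an epithelial chain, averaged 174 in PKH-high and 19.5 in PKH-negative cells (2.97 ± 0.51, adjusted p = 1.25e-07) and 1.46 in knockout and 24.0 in empty-vector spheres (-3.15 ± 1.04, adjusted p = 0.00711). Itgb6 was also lower in PKH-negative cells with Myc-ER, at 7.02 against 21.1 (-1.31 ± 0.53, adjusted p = 0.0387). Itga8, the receptor chain for nephronectin, was higher in the knockout, at 3176 against 887 (1.79 ± 0.42, adjusted p = 9.26e-05), where its ligand Npnt averaged 675 against 51.6 (3.41 ± 0.71), and with Nutlin-3, at 1714 against 1432 (0.39, adjusted p = 0.0384). For Npnt with Nutlin-3 no value is given here.

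Itga4 and Itga9, related chains that both bind Vcam1 and pair with Itgb1, moved in opposite directions in tumour and knockout spheres. Itga4 (chr2:79255426-79333123) averaged 1616 normalised counts in knockout spheres and 263 in empty-vector spheres (2.53 ± 0.47, adjusted p = 6e-07), and 1030.1 in ErbB2 and 237 in empty-vector spheres (2.05 ± 0.45, adjusted p = 7.57e-05). Itga9 averaged 615 in knockout and 1911 in empty-vector spheres (-1.59 ± 0.44, adjusted p = 0.00109), and 308 in ErbB2 and 1725 in empty-vector spheres (-2.41 ± 0.43, adjusted p = 5.29e-07). Itga9 was also lower with Myc-ER, at 648 against 1869.8 in unsorted spheres (-1.47 ± 0.31, adjusted p = 8.03e-06) and 557 against 1450.4 in PKH-negative cells (-1.36 ± 0.16, adjusted p = 2.14e-15). Vcam1 averaged 6280.4 in knockout and 665 in empty-vector spheres (3.09 ± 0.54), and 2512 in ErbB2 and 601 in empty-vector spheres (2.03 ± 0.32). Itga4 is also found on leukocytes. Myeloid markers were lower in 11 of 13 cases in the knockout (summed means 935 in knockout and 4832 in empty-vector spheres, with Tyrobp, C1qa and C1qb at 0 in the knockout) and in 6 of 9 in ErbB2 spheres (893 in ErbB2 and 4005 in empty-vector spheres). In PKH-high cells, where 13 of 13 myeloid markers were higher, Itga4 was lower, at 185 against 454 in PKH-negative cells (-1.27 ± 0.32, adjusted p = 0.00062). Of 9 lymphocyte markers, 1 was listed in the knockout, 0 in ErbB2 spheres and 0 in PKH-high cells. The part of leukocytes in the Itga4 results was not tested. Itga4 overlaps Cerkl on the other strand. Knockout and ErbB2 spheres also differ from the empty-vector spheres in passage and infection, and ErbB2 spheres in age, which cannot be told apart from genotype.

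**Figure D4:**
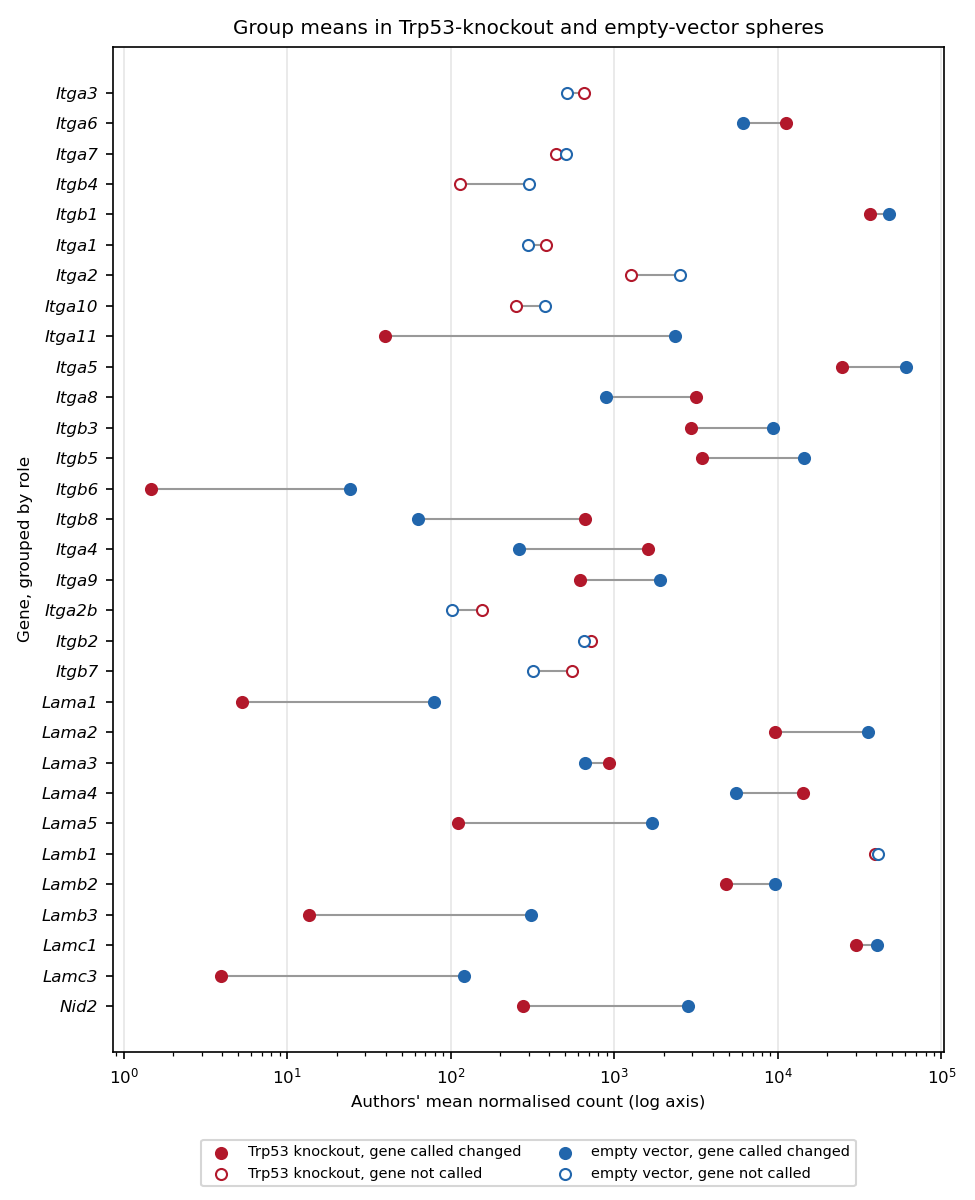
The authors' mean normalised count (log axis) of members in Trp53-knockout (red) and empty-vector spheres (blue), joined by a line; filled points mark genes with an adjusted p below 0.05. Itga11, Itgb6, Lama5, Lamb3 and Lamc3 lie far to the left in the knockout, while Itgb8, Itga4, Itga8 and Lama4 lie to the right.

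Among the leukocyte and platelet chains, Itgb2 was higher in 3 comparisons and lower in none, Itgb7 was called in both directions and Itga2b once. Itgb2, the beta chain shared by leukocyte integrins, averaged 1314 normalised counts in PKH-high and 296 in PKH-negative cells (2.12 ± 0.25, adjusted p = 1.05e-15), and its partner Itgam 1122 and 30.2 (5.09 ± 0.33). Itgb2 was also higher in unsorted spheres with Myc-ER, at 790.2 against 639.6 in empty-vector spheres (0.30 ± 0.10, adjusted p = 0.00539) and, in PKH-negative cells, at 690.0 against 322 without Myc-ER (1.05 ± 0.29, adjusted p = 0.00136), where Itgam was not called. Myeloid markers were lower in 11 of 13 cases and higher in 0 with Myc-ER in unsorted spheres (summed means 1693 with Myc-ER and 4725 with the empty vector), and 1 of 8 was higher and 1 lower with Myc-ER in PKH-negative cells (1239.8 with Myc-ER and 1188 without), and their part in the result was not tested. In the knockout Itgb2 averaged 721 against 652 in empty-vector spheres (0.14 ± 0.26, adjusted p = 0.678), whereas Itgam averaged 4.03 against 88.3 (-4.00 ± 0.77). Of the other partners, Itgax was lower in ErbB2 spheres (11.1 against 107), with Myc-ER in unsorted spheres (32.6 against 116) and in PKH-negative cells with Myc-ER (21.6 against 66.2), and Itgal was called in none of the 5 comparisons that list it. Itgb7, the beta chain of gut-homing lymphocytes, was higher with Myc-ER, at 775 against 314 (1.24 ± 0.34, adjusted p = 0.000987), and lower with Nutlin-3, at 302 against 601 (-1.50, adjusted p = 2.68e-07). Itga2b, the platelet chain, was called once, in PKH-negative cells with Myc-ER, at 94.2 against 63.8 (0.55 ± 0.23, adjusted p = 0.0448).

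In PKH-high cells both the basal chains Itga3 and Itgb4 and the leukocyte chain Itgb2 were higher, beside higher markers of several cell types. The other laminin-binding chains, Itga6, Itgb1 and Itga7, and the leukocyte and platelet chains Itgb7 and Itga2b were not called there. Luminal markers were higher in 13 of 13 cases (summed means 54100.4 in PKH-high and 1814 in PKH-negative cells), basal markers in 7 of 8 (18039.7 and 650.3), endothelial markers in 11 of 12 (55399 and 2001) and myeloid markers in 13 of 13 (59228 and 1382). Of 5 platelet and mast cell markers 1 was higher and 1 lower (1104 and 1232), and of the lymphocyte markers 0 were listed. None of the luminal, basal, endothelial and myeloid markers listed was at 0 in either group. Of 8 fibroblast markers 4 were lower and 1 higher (190140 and 334190 in PKH-high and PKH-negative cells), beside the lower Itga11, Itga5, Lama2, Lamb1, Lamc1 and Nid1. In the knockout the lower calls of Lama5, Lamb3, Itgb6 and Nid2 stood beside endothelial markers lower in 11 of 12 cases (462 in knockout and 7863 in empty-vector spheres), basal markers in 5 of 6 (375 and 2312) and luminal markers in 7 of 11 (2613 and 5909), with Sox17 at 0 in the knockout. The part of these marker shifts in the results was not tested.

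The Myc-ER comparisons in unsorted spheres and in PKH-negative cells share no libraries. Both tables list 32 of the members. Those lower in both were Itga11, Itga5, Itga9, Lama4 and Lamb2, which is 45.5% of the 11 lower in unsorted spheres and 38.5% of the 13 lower in PKH-negative cells, and Itgb2 was higher in both. Over all genes in both tables, the same overlap was 47.9% of the 3213 lower in unsorted spheres and 60.7% of the 2537 lower in PKH-negative cells. No member was called in opposite directions. The sign of the fold change was shared by 26 of the 32 (81.25%), beside 76.0% of the 13431 genes in both tables. Lama4 averaged 2860.3 with Myc-ER and 5386 with the empty vector (-0.89 ± 0.24, adjusted p = 0.000826), and 2137 in PKH-negative cells with Myc-ER and 9722 without (-2.09 ± 0.27, adjusted p = 8.33e-13). Nid1, Itgb1, Itgb5, Itgb8, Lama2 and Lamc1 were called lower in unsorted spheres alone, and the difference between the settings was not tested. In PKH-negative cells alone Lama1 was called higher, at 161 against 54.3 (1.51 ± 0.23, adjusted p = 1.33e-09). Called lower in PKH-negative cells alone were 8 members, among them Lama3 (366 against 1079, -1.34 ± 0.46, adjusted p = 0.0129), Itga10, Itgb3, Itgb4, Itgb6, Lamb1 and Lamc3, while the hemidesmosome partners Itga6 (6168 against 6292, adjusted p = 0.921) and Lamb3 (20.5 against 43.8, adjusted p = 0.126) were not called. PKH-negative cells with Myc-ER were infected and at passage 3, and those without were uninfected and at passage 1, which cannot be told apart from Myc-ER.

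**Figure D5:**
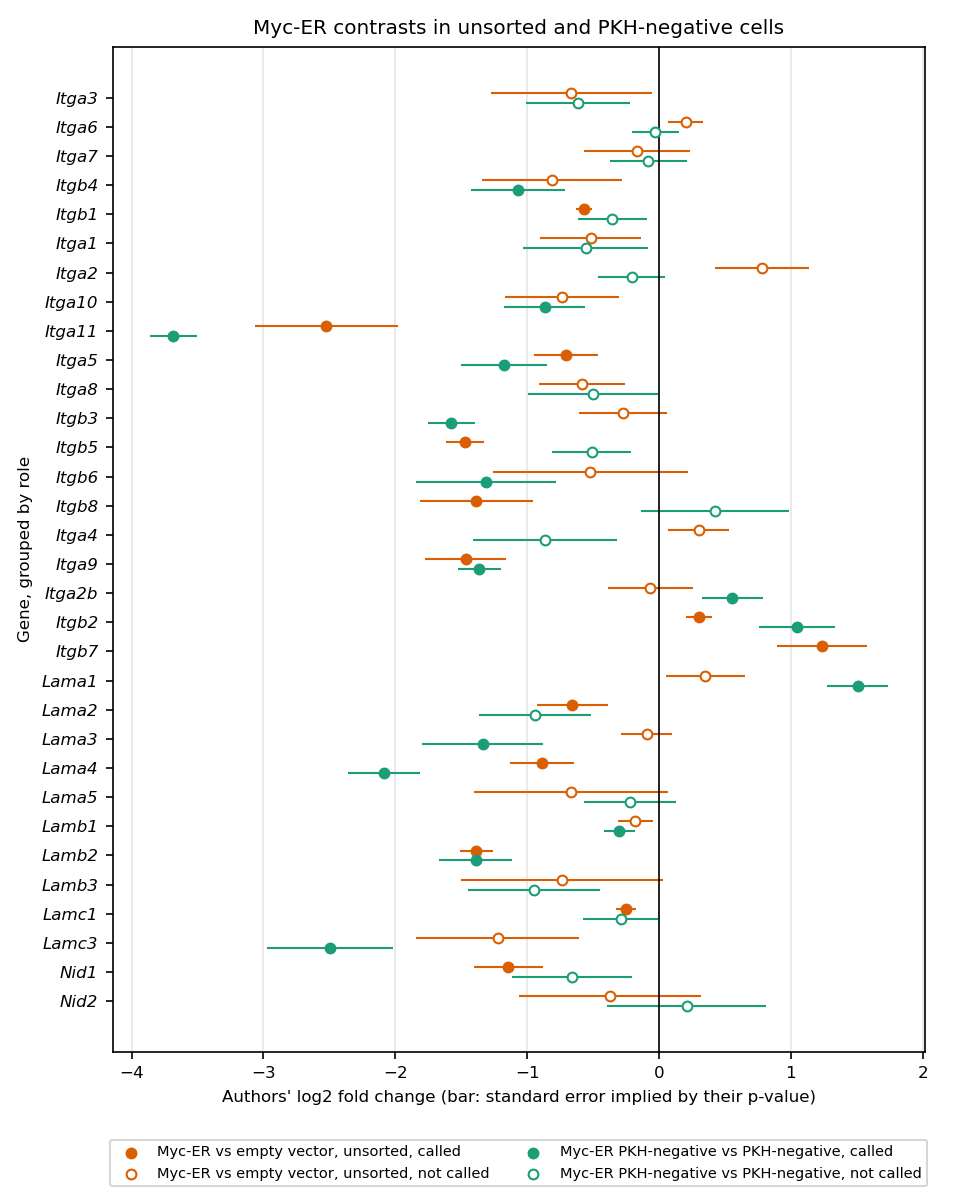
The authors' log2 fold change of 32 members for Myc-ER against the empty vector in unsorted spheres (orange) and for Myc-ER against uninfected cells in the PKH-negative fraction (green), with the standard error implied by the authors' p-value as a bar and filled points at an adjusted p below 0.05. Most points lie left of 0 in both settings, with Itga11 farthest left at -2.52 and -3.68.

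Other genes of the basement membrane and of integrin adhesion were counted in the same tables. Of all genes, 50.8% were called with Myc-ER, 27.1% in ErbB2 spheres and 14.7% with Nutlin-3. The shares were 45.9% in the knockout, 30.7% in PKH-high cells and 37.5% with Myc-ER in PKH-negative cells. Several counts here and in the next paragraph lie below these shares, such as those of the adhesion machinery in ErbB2 spheres and PKH-high cells. Of the basement membrane partners, 12 of 30 were lower and 1 higher with Myc-ER, 8 of 26 lower and 2 higher in ErbB2 spheres, 1 of 24 lower and 4 higher with Nutlin-3, 12 of 30 lower and 7 higher in the knockout, 5 of 30 lower and 6 higher in PKH-high cells and 9 of 29 lower and 2 higher with Myc-ER in PKH-negative cells. The basement membrane collagen Col15a1 had the largest change with Myc-ER, at 3185 against 28841 (-3.16 ± 0.11), and Tinagl1, a matrix protein that binds laminin, in ErbB2 spheres, at 14841 against 899 (3.79 ± 0.63). In PKH-high cells the largest were the calcium-binding matrix protein Smoc1 (352 against 22.8, 3.83 ± 0.38) and the netrin Ntn4, which binds laminin gamma chains (174 against 15.6, 3.27 ± 0.54). In the knockout they were Smoc1 (2.48 against 204, -5.33 ± 0.91) and Frem1 (162 against 2558, -3.76 ± 0.59).

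Of the other integrin ligands, 11 of 17 were lower and 0 higher with Myc-ER, 7 of 15 lower and 1 higher in ErbB2 spheres, 1 of 14 lower and 5 higher with Nutlin-3, 8 of 17 lower and 3 higher in the knockout, 3 of 17 lower and 5 higher in PKH-high cells and 8 of 16 lower and 2 higher with Myc-ER in PKH-negative cells. The leukocyte ligand Icam1 was higher with Nutlin-3, at 661 against 158 in untreated tumour spheres (1.60, adjusted p = 3.22e-10), and Icam2, an endothelial ligand of Itgb2 integrins, was higher in PKH-high cells (774 against 25.4, 4.43 ± 0.67) and lower in the knockout (1.43 against 135, -5.61 ± 0.85). Of the adhesion machinery inside the cell, 11 of 28 were lower and 3 higher with Myc-ER, 2 of 28 lower and 2 higher in ErbB2 spheres as with Nutlin-3, 11 of 29 lower and 3 higher in the knockout, 4 of 29 lower and 4 higher in PKH-high cells, and 12 of 29 lower and 2 higher with Myc-ER in PKH-negative cells. Of the 3 kindlins, which switch integrins on, both tissue-restricted ones were higher in PKH-high cells: the epithelial Fermt1 (595 against 15.8, 5.05 ± 0.39) and the leukocyte Fermt3 (509.7 against 61.7, 2.96 ± 0.36) passed, and the widespread Fermt2 was not called. In the knockout all 3 were lower, with Fermt2 at 2099 against 7459 in empty-vector spheres (-1.76 ± 0.49).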

How the data were processed

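Polyadenylated RNA of 24 libraries in 8 groups was sequenced. Per the submitters' processing notes, CASAVA 1.9, TopHat2 2.0.8, Bowtie2 2.1.0, SAMtools 0.1.18, HTSeq 0.5.3p9 and DESeq2 1.10.1 were used, with the mm10 build; counting settings are not stated. The authors deposited 6 tables, 1 for each comparison. Per the file headers, genes with a mean above 10 are listed. This limit does not account for every member without an entry. Nid1, without one in the Trp53 comparison, averaged 140683 in empty-vector spheres of the Myc-ER comparison. Itga11, without one in the ErbB2 comparison, averaged 2274 in those spheres. Why such entries are missing is not known. Their expression signal is, per the file headers, a group's mean normalised count from DESeq2, deposited only as group means. The deposited log2 fold changes come from the authors' DESeq2 fits, except that Nutlin-3 fold changes are means of paired log2 ratios. The p-values and adjusted p-values are the authors', as deposited. The headers call the libraries of a group biological replicates and say that treated and untreated Nutlin-3 libraries were analysed as pairs by tumour. The animals behind the other libraries are not given. The p-values therefore weigh each change against the variation between these libraries. Whether they extend to other animals is not known.

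From these values, calls at an adjusted p below 0.05, counts, levels per kilobase of exon (GENCODE M21) and motif matches were computed. Implied standard errors were the absolute log2 fold change over the normal quantile of the p-value. The tools were Python 3.11.15, pandas 2.3.3, numpy 2.4.6, scipy 1.17.1 and matplotlib 3.10.9. Only the calling by adjusted p and the implied standard errors were tested on simulated data. Count models were not refitted, since only group means were held. Members and gene lists were chosen with earlier results of these data known. 1 member is not reported here by name or in the figures and stays in the counts. Members were named by role with their partner chains whatever their result, and other genes as the up to 3 called genes of each list with the largest fold change. Entries that name no gene held 28.2% of the knockout group's summed means and 29.7% of the empty-vector group's in the Trp53 table. The headers call the control of the Myc-ER, ErbB2 and Trp53 tables wild type; it was taken as the empty-vector group, since the labels hold no other wild-type spheres left unsorted and without Myc-ER. Levels were otherwise compared only within a table. The exceptions were Lama4, Lama2 and the Itga6 to Itgb4 ratio in untreated tumour spheres, set side by side from the ErbB2 and Nutlin-3 tables. Depth per library is unknown, and no interval was made from counts.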

Additional observations from a re-analysis of the deposited data

How the results depend on the processing

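Counts of called members stayed within 1.5 times of the reported count in 34 of 36 alternatives, which were an adjusted p below 0.01 or below 0.1, a log2 fold change of at least 1, a mean of at least 100, adjustment over entries that name a gene, and the sign of the centred ratio of means. Over all genes, adjustment over gene entries and the centred sign gave the main count in every comparison, such as 7052 with Myc-ER in unsorted spheres. These alternatives could hardly move a count of members, so they add little to the tally. With a log2 fold change of at least 1, the count was 7 in place of 13 for Myc-ER in unsorted spheres and 1 in place of 7 for Nutlin-3, where that limit itself removes smaller changes. At that limit 16.1% and 1.99% of all genes were called, beside 21.2% and 3.33% of the members. Of 380 comparisons of a member's fold change with the ratio of group means, 0 reversed a called direction. Fold change and ratio come from the same libraries, so a called direction could hardly reverse. The 46 classed as moved are the 23 members not called with Nutlin-3, each set beside 2 ratios, where no standard error was available to judge the shift. In that table the fold change and the plain ratio of means differed in sign for 5 members, of which 0 were called. No paired analysis was possible because the tables hold group means; the authors' own Nutlin-3 test was paired. For the same reason, leaving out each replicate and refitting with another tool or normalisation were not run, and whether 1 library decides a value was not tested; the tumour means of Lama2 and Lama4 did change with the libraries averaged, as given above. The groups of 2 libraries, Trp53 knockout and PKH-high, limit the precision of those comparisons.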
